A study of Mus musculus with 12 samples.

Results

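Induced pluripotent stem cells (iPSCs) of the mouse were set against the skin fibroblasts (Fibs) of the type they are made from, in 3 libraries each, over all genes of the table with a level of at least 1 FPKM in at least 3 of these 6 libraries. FPKM is a fragment count scaled to the length of the transcript and to the total of the library, so it can be compared between genes of different length. Of the 99 genes in the table, 69 met this limit and are described here, and 30 did not. The comparison answers how the mRNA levels of the reprogrammed cells differ from those of their cell type of origin. The iPSCs, given the genotype label Reprogramming, were made with Sendai virus carrying human Oct4, SOX2, Klf4 and c-Myc, and grew in DMEM/F-12 with KnockOut serum replacement and LIF, a cytokine that keeps mouse pluripotent cells undifferentiated. The Fibs, labelled WT, came from the ear skin of 8-week-old female C57BL/6 mice and grew in high-sugar DMEM with fetal bovine serum. The series has 12 libraries in all. The other 6 are induced mesenchymal stem cells (iMSCs), which were differentiated out of iPSCs, and bone marrow mesenchymal stem cells (BMSCs), used below for levels only.

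The methods name 3 independent cultures per cell type. How many colonies the iPSC cultures go back to, and whether the sequenced Fibs are the parents of the sequenced iPSCs, is not stated in the labels or methods. Culture medium and cell state cannot be told apart, since each cell type had its own medium. During reprogramming the cells were plated on feeder cells inactivated with mitomycin C. Fap, a surface protease of fibroblasts, was listed at 0 to 0.0452 FPKM in iPSCs, against 0.280 to 0.338 FPKM in Fibs, and the part of feeder RNA in the results was not tested. Of 10 markers of pluripotent cells fixed for the check of the label, the table used here holds 1, Cdh1, which was high in every iPSC library. Of 12 fibroblast markers it holds 1, Fap, which lay under the limit of 1 FPKM in the Fibs too. The labels therefore rest on few markers here. All levels are from bulk RNA, in which fewer cells of a type and less RNA per cell cannot be told apart.

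Reprogramming with the 4 factors returns a differentiated cell to a state like that of the early embryo. In mouse fibroblasts it runs through a mesenchymal-to-epithelial transition, in which the cells gain E-cadherin junctions and lose matrix and migration genes. Pluripotent mouse cells divide fast with a short first gap phase, transcribe some genes otherwise known from the germline, and need LIF and Wnt signals for self-renewal. Skin fibroblasts make extracellular matrix and respond to ligands of the TGF-beta family.

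The libraries held an implied 17825077 to 19338794 fragments for iPSCs and 17072484 to 17742347 for Fibs, and the 99 genes took 0.471 to 0.485% of them in iPSCs and 0.404 to 0.418% in Fibs. Replicates lay close together. The mean distance on log2(FPKM + 1) over the 69 genes was 1.29 to 1.33 between an iPSC library and the other iPSC libraries and 1.95 to 2.43 among Fibs, against 16.4 to 16.7 between the cell types. Among the 54 genes with a level of at least 1 FPKM in a library of each cell type, the median coefficient of variation was 5.09% in iPSCs and 6.61% in Fibs.

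Most of the 69 genes differed between iPSCs and Fibs, and in both directions. The test was edgeR's quasi-likelihood test with Benjamini-Hochberg adjustment over the 98 genes of the table with any read in the 6 libraries, and a gene is said to rise or fall in iPSCs where the adjusted p was under 0.05. Higher in iPSCs were 37 of the 69 genes (53.6%), beside 45.9% of all genes tested. Lower were 23 (33.3%), beside 28.6% of all genes tested. More than 2-fold higher were 23 (33.3%, beside 31.6%) and more than 2-fold lower 15 (21.7%, beside 20.4%). These shares are near those of all genes tested, of which the 69 form the larger part. The median log2 fold change of iPSC over Fib was 0.61 over the 69 genes and 0.65 over all 98. For 64 of the 69 genes the 3 iPSC levels and the 3 Fib levels did not overlap. Among them, the 9 genes that reached 1 FPKM in iPSCs alone and the 6 that reached it in Fibs alone could not overlap. Genes outside the limit, such as Wnt3, Cdh4, Btbd17, Drp2, Fap and Mid2, also showed no overlap, while others such as Itgb2 and Pemt did overlap. The share over all genes tested was not counted, so the 64 are not read as a result particular to the 69 genes.

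The count of rises against falls depended on the scaling of the libraries. With library totals implied by the ratio of counts to FPKM, as used throughout, 61.7% of the 60 called genes were higher in iPSCs. TMM scaling over the 98 genes moved the median log2 fold change by -0.38 and gave 33 higher and 27 lower (55.0% higher). Median-ratio scaling moved it by -0.45 and gave 30 and 28 (51.7%), and DESeq2 with its own size factors gave 29 and 27 (51.8%). More than 2-fold, these 3 scalings gave 19 higher and 19 lower each. Genes whose direction changed with the scaling are named where they occur.

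The limit of 1 FPKM admits some genes only because 1 cell type expressed them. At or above 1 FPKM in every iPSC library and under it in every Fib library were 9 genes (Cdh1, Gpa33, Ckmt1, Bcl6b, Ngfr, Rnf17, Pdgfb, Lck and Axin2). The reverse held for 6 (Fgf23, Egfl6, Sox9, Mx1, Pparg and Rem1). These 15 had to differ in level. Of the other 54, 28 rose and 17 fell, 14 and 9 of them by more than 2-fold. Among the 54, Septin1, Cdc45, Dgke, Tbx4 and Slfn4 reached 1 FPKM in fewer than 3 Fib libraries. These met the limit only with their iPSC levels, so the rises of Septin1, Cdc45 and Dgke are not free of the limit either.

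**Figure D1:**
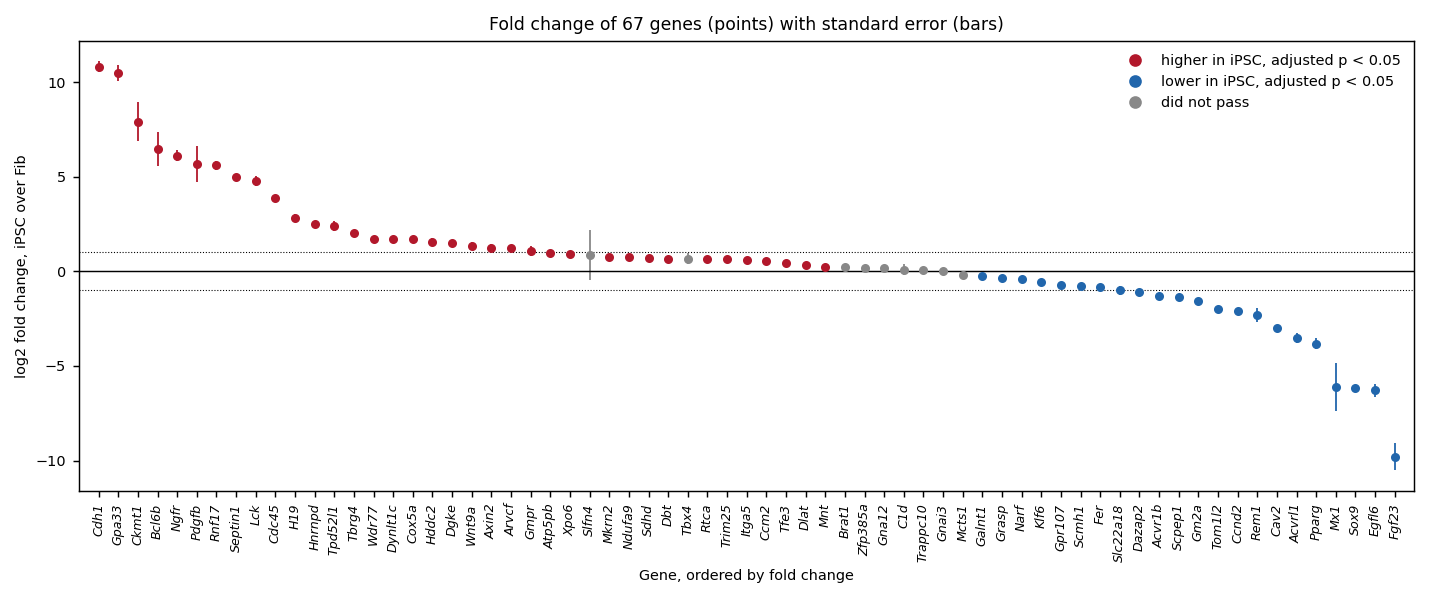
Log2 fold change of iPSC over Fib (y axis) for 67 of the 69 genes in order of size (x axis), with points for the estimate of the edgeR fit on 3 libraries per cell type and bars for its standard error. Dotted lines mark 2-fold. The 36 genes drawn as higher in iPSCs run up to Cdh1 at 10.82, the 22 drawn as lower run down to Fgf23 at -9.80, and 9 genes in the middle did not pass the test.

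Cdh1, Gpa33, Tpd52l1 and Arvcf, genes of epithelial adhesion and surface, were higher in iPSCs. Cdh1 and Gpa33 had the 2 largest fitted fold changes among the 69 genes, but reached the limit through iPSCs alone and so had to differ. Of 27 genes in this list the table holds 6, of which 4 were among the 69. All 4 were called higher, beside 45.9% of all genes tested. Their median log2 fold change of 6.43 is set by Cdh1 and Gpa33, while Tpd52l1 and Arvcf, above the limit in both cell types, had 2.39 and 1.25. Cdh1, chr8:106603351-106670246 on the plus strand, encodes E-cadherin, the adhesion molecule of epithelial junctions. It reached 132, 143 and 139 FPKM in iPSC 1 to 3, against 0.0364, 0.0700 and 0.117 FPKM in Fib 1 to 3. It had the highest mean of the 69 genes in iPSCs, 138 FPKM, while every Fib library was near 0. The log2 fold change was 10.82 (SE 0.29, adjusted p = 1.06e-07). Summed over libraries Cdh1 had 35204 fragments in iPSCs and 18 in Fibs, in a ratio of 1837 (95% counting interval 1162 to 3100).

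Gpa33, chr1:166130238-166166510 on the plus strand, encodes a surface glycoprotein of the immunoglobulin superfamily best known from gut epithelium. Its levels were 29.7, 32.6 and 29.2 FPKM in iPSCs, against 0, 0.0195 and 0.0393 FPKM in Fibs. With 3 fragments over the 3 Fib libraries and 4666 over the iPSC libraries, the ratio was 1461 (95% counting interval 499.5 to 7086). The fitted log2 fold change was 10.47 (SE 0.43, adjusted p = 5.69e-07). The other genes of the list among the 69 were above 1 FPKM in every Fib library, and their changes were smaller. Tpd52l1, a coiled-coil protein of the tumour protein D52 family, had 9.95, 7.33 and 8.65 FPKM in iPSCs, against 1.96, 1.21 and 1.76 FPKM in Fibs (log2 fold change 2.39, SE 0.27, adjusted p = 0.000134). Arvcf, a catenin that binds the tails of cadherins, had 6.74, 7.01 and 6.60 FPKM in iPSCs, against 3.03, 2.75 and 2.74 FPKM in Fibs (log2 fold change 1.25, SE 0.08, adjusted p = 5.38e-06). In both, each iPSC library lay above each Fib library. The summed level of the 6 genes was 178 to 190 FPKM in iPSCs and 4.05 to 5.09 FPKM in Fibs, most of it Cdh1. Cdh1 is also in the keratinocyte marker list, of which the table holds no other gene.

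Among genes under the limit, Tmprss2, an epithelial membrane protease, averaged 0.217 FPKM in iPSCs and 0.0227 FPKM in Fibs, and passed the test (adjusted p = 0.0459). Igsf5, a tight junction protein, was at 0.0411 FPKM in iPSC 1 and listed at 0 in the other 5 libraries. Cdh4, the R-cadherin gene of the mesenchymal list, had 0.642, 0.788 and 0.885 FPKM in iPSCs, against 0.00683, 0.0368 and 0 FPKM in Fibs, and rose (adjusted p = 0.0018).

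**Figure D2:**
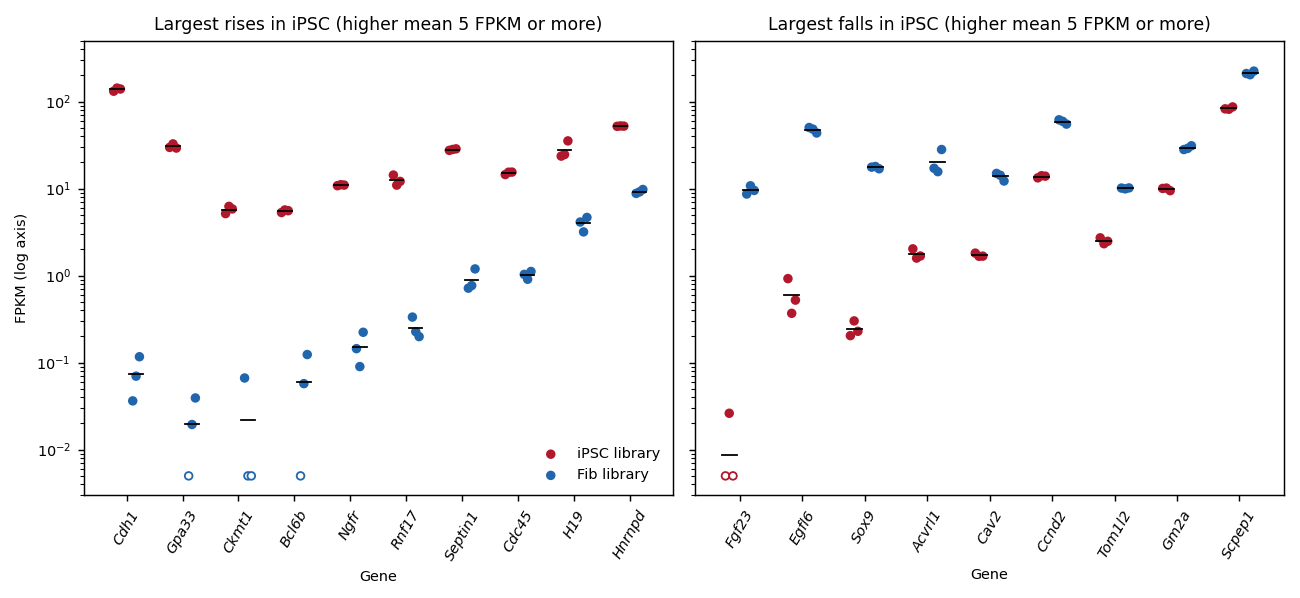
FPKM on a log axis (y) in each of the 3 iPSC (red) and 3 Fib (blue) libraries for 10 of the largest rises (left) and 9 of the largest falls (right) among genes with a higher group mean of at least 5 FPKM (x). Filled points are libraries, open points libraries listed at 0 and drawn at the foot of the axis, and black lines group means. The 3 libraries of a cell type lie close together for many genes, but not for Acvrl1 in Fibs, Egfl6 in iPSCs or genes near 0. The cell types do not overlap for any of the 19 genes, which were chosen for that.

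The promoters of the genes at both ends of the ranking are shown to let the reader see what lies at the start sites of genes that were near 0 in 1 cell type. The sequences are from RefSeq on GRCm38.p6, from 250 bases before to 50 bases after an annotated start, on the strand of the gene, in lower case with motif matches in capitals. Of the 69 genes, 54 had an entry. Cdh1 and Sox9 are named only. The windows are Gpa33 at chr1:166129971-166130270 (plus strand), the upstream and downstream starts of Ckmt1 at chr2:121357526-121357825 and chr2:121358360-121358659 (both plus), Fgf23 at chr6:127072652-127072951 (plus) and Egfl6 at chrX:166585667-166585966 (minus). The capitals mark a TATA box in the first Ckmt1 window and a GC box in the Egfl6 window.
Gpa33: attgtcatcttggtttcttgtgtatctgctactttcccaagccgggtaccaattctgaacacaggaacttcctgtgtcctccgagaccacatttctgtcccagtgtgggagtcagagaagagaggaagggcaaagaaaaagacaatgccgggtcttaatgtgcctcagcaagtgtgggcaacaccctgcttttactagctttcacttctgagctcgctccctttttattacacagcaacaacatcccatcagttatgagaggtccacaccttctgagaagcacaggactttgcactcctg
Ckmt1 upstream start: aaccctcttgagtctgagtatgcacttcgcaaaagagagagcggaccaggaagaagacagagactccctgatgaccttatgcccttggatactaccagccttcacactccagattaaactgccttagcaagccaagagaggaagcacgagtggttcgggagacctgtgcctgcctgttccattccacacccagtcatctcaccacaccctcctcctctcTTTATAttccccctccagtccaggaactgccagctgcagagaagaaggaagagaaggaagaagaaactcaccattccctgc
Ckmt1 downstream start: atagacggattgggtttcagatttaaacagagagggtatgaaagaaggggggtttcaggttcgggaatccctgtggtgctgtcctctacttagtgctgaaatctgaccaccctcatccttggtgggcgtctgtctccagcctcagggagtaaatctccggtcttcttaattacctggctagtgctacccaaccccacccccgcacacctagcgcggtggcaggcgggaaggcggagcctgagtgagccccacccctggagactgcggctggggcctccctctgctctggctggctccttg
Fgf23: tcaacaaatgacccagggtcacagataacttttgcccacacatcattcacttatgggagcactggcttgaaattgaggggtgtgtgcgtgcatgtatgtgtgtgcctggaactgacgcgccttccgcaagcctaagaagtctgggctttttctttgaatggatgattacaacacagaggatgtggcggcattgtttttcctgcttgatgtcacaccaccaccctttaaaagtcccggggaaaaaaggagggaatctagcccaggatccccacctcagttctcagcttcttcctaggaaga
Egfl6: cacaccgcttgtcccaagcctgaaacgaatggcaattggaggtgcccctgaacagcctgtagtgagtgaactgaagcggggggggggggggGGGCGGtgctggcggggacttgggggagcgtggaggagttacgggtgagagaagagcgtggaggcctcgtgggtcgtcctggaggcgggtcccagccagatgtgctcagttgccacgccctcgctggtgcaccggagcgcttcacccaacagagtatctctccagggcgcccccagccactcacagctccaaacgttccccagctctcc

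The 5 windows differed in base composition. Gpa33 held 4 CpG dinucleotides at a GC content of 48.0% and Fgf23 held 6 at 49.0%, while Egfl6 held 17 at 65.3%. The Ckmt1 windows held 4 and 10 CpG at 52.0% and 58.3%. Motifs were searched on both strands as exact letters, namely the E-box bound by Snail and ZEB repressors (CACCTG or CAGGTG), the GC box (GGGCGG or CCGCCC), the octamer bound by Oct4 (ATTTGCAT or ATGCAAAT) and the TATA box (TATAAA or TTTATA). Over the genes more than 2-fold higher in iPSCs, 17 genes with 21 windows, a GC box was in 76.2% of windows, an E-box in 23.8% and a TATA box in 9.52%. Over those more than 2-fold lower, 10 genes with 12 windows, the shares were 83.3%, 16.7% and 8.33%. Of all 32851 windows of the genome 35.7% held a GC box, 20.2% an E-box, 13.6% a TATA box and 1.74% an octamer, and no window of either group held the octamer. The median CpG number was 15 in the windows of higher genes and 19 in those of lower genes, against 7 over all windows. Windows of other expressed genes were not counted, so whether these values are particular to changed genes was not tested. The windows were too few to tell an octamer share of 1.74% from none. A match is a run of letters and says nothing of binding, and several windows belong to the same gene.

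Rnf17, Bcl6b, Ngfr, Septin1 and Lck, genes of several other lineages, were expressed in iPSCs and close to or under 1 FPKM in Fibs. All of them but Septin1 reached the limit through iPSCs alone and so had to differ. Septin1 reached 1 FPKM in Fib 3 alone among the Fib libraries, so it too met the limit only with its iPSC levels. Rnf17, a Tudor-domain protein of male germ cells, had 14.3, 10.96 and 12.1 FPKM in iPSCs, against 0.334, 0.227 and 0.199 FPKM in Fibs (log2 fold change 5.61, SE 0.23, adjusted p = 5.69e-07). It was the only gene of the pluripotency and germline list to reach the limit, out of 3 in the table and 32 in the list. Scml2, a Polycomb-group gene of the germline under the limit, averaged 0.415 FPKM in iPSCs and 0.202 FPKM in Fibs (adjusted p = 0.0459). Bcl6b encodes a zinc-finger repressor that maintains spermatogonial stem cells in the mouse. It had 5.31, 5.68 and 5.57 FPKM in iPSCs, against 0, 0.0574 and 0.124 FPKM in Fibs. Its 1146 fragments in iPSCs against 12 in Fibs gave a ratio of 89.7 (95% counting interval 51.1 to 174, adjusted p = 0.00042).

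Ngfr encodes p75, the low-affinity receptor of neurotrophins. Its levels were 10.8, 11.1 and 10.97 FPKM in iPSCs, against 0.145, 0.0901 and 0.223 FPKM in Fibs, the highest Fib level lying far under the lowest iPSC level (log2 fold change 6.12, SE 0.31, adjusted p = 1.67e-06). Septin1, a filament-forming GTPase, had 27.5, 28.2 and 28.6 FPKM in iPSCs, against 0.717, 0.769 and 1.19 FPKM in Fibs (log2 fold change 4.96, SE 0.21, adjusted p = 6.1e-07). Lck, a Src-family kinase best known from T cells, had 4.54, 5.49 and 4.33 FPKM in iPSCs, against 0.149, 0.216 and 0.146 FPKM in Fibs (log2 fold change 4.77, SE 0.27, adjusted p = 2.77e-06). Lck is a leukocyte marker as well. Of 17 leukocyte markers the table holds 4, with a sum of 5.16 to 6.25 FPKM in iPSCs and 0.770 to 1.11 FPKM in Fibs. Apart from Lck these markers were at or under 1 FPKM in both cell types, as Itgb2 averaged 0.767 FPKM in iPSCs and 0.783 FPKM in Fibs, Clec10a 0.0170 FPKM and 0 FPKM, and Itgb2l 0.00787 FPKM and 0.0124 FPKM.

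Egfl6, Cav2, Sox9 and Pparg, genes of matrix, membrane, cartilage and fat, were lower in iPSCs, while Itga5 and Tfe3 of the same lists were higher. In the list of mesenchymal matrix, integrin and caveolin genes, 5 of 38 were in the table and 3 among the 69, of which Egfl6 and Cav2 fell and Itga5 rose (median log2 fold change -3.00, with Egfl6 above the limit in Fibs alone). Egfl6, chrX:166523007-166585720 on the minus strand, encodes a secreted matrix protein with EGF repeats. It had 0.924, 0.369 and 0.523 FPKM in iPSCs, against 50.3, 48.2 and 43.5 FPKM in Fibs. The iPSC libraries varied among themselves by more than the Fib libraries did in proportion, but all stayed under 1 FPKM (log2 fold change -6.28, SE 0.34, adjusted p = 2.37e-06). Cav2, a caveolin of the membrane pits abundant in fibroblasts, had 1.81, 1.67 and 1.67 FPKM in iPSCs, against 14.9, 14.2 and 12.2 FPKM in Fibs (log2 fold change -3.00, SE 0.11, adjusted p = 4.52e-07).

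Itga5, the alpha chain of the fibronectin receptor, went the other way. Its levels were 56.0, 60.5 and 56.1 FPKM in iPSCs, against 37.0, 35.7 and 39.997 FPKM in Fibs (log2 fold change 0.62, SE 0.06, adjusted p = 4.61e-05). With DESeq2's own size factors the log2 fold change of Itga5 was 0.17 and the call was lost (adjusted p = 0.0771, the highest over the alternatives).

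Both receptors of the TGF-beta family in the table fell, out of 13 in the list, where 28.6% of all genes tested fell. Acvrl1, or ALK1, is a type I receptor of endothelial cells for BMP9 and BMP10. It had 2.03, 1.59 and 1.68 FPKM in iPSCs, against 17.1, 15.7 and 28.1 FPKM in Fibs. Fib 3 stood well above the other Fib libraries, and without it the log2 fold change was -3.21 in place of -3.52 (SE 0.25, adjusted p = 1.16e-05 with all libraries). Acvrl1 was the only gene in the table of 8 endothelial markers, so the part of endothelial cells in its Fib level was not tested. Acvr1b, or ALK4, the type I receptor for activin and Nodal, had 15.1, 16.8 and 15.9 FPKM in iPSCs, against 37.6, 38.5 and 39.9 FPKM in Fibs (log2 fold change -1.28, SE 0.06, adjusted p = 8.78e-07).

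Of 32 lineage transcription factors, 8 were in the table and 6 among the 69 (median log2 fold change -0.04). Called lower were 3 and higher 2, beside 28.6% and 45.9% of all genes tested, and 1 did not pass. Sox9 and Pparg reached the limit in Fibs alone and Bcl6b in iPSCs alone, so these had to differ. Sox9, chr11:112782224-112787760 on the plus strand, is the master factor of cartilage and is also active in skin and hair follicle. Its levels were 0.204, 0.302 and 0.229 FPKM in iPSCs, against 17.6, 17.9 and 16.9 FPKM in Fibs. The Fib libraries differed among themselves by about 1 FPKM, and no iPSC library came near them (log2 fold change -6.14, SE 0.16, adjusted p = 9.62e-08). Pparg, the master factor of fat cells, had 0.229, 0.207 and 0.248 FPKM in iPSCs, against 4.07, 2.85 and 2.88 FPKM in Fibs (log2 fold change -3.83, SE 0.28, adjusted p = 1.23e-05). Klf6, a zinc-finger factor of the same family as the reprogramming factor Klf4, averaged 22.4 ± 0.427 FPKM in iPSCs and 32.6 ± 0.974 FPKM in Fibs (SD, n = 3 each) with a log2 fold change of -0.54 in the edgeR fit (adjusted p = 2.9e-05), and was not called in the fit of all 12 libraries (adjusted p = 0.0856, the highest over the alternatives). Tfe3, a factor of lysosomal and metabolic genes that also acts in the exit from pluripotency, averaged 10.4 ± 0.525 FPKM in iPSCs and 7.57 ± 0.506 FPKM in Fibs (log2 fold change 0.46, adjusted p = 0.000719), a rise that was not called under TMM, median-ratio or DESeq2's own scaling. The rise of Bcl6b is given above.

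Tbx4, which specifies the hindlimb, did not pass. It had 2.00, 1.76 and 1.57 FPKM in iPSCs, against 1.47, 0.945 and 0.922 FPKM in Fibs. The groups did not overlap, but Fib 1 lay just under iPSC 3, and the log2 fold change of 0.67 had an SE of 0.28 (adjusted p = 0.0638). Without Fib 1 it was 0.93 and passed (adjusted p = 0.00773), and with all libraries it passed with DESeq2 on the implied totals, both limma fits, counts divided by 4 and the fit of all 12 libraries (adjusted p = 0.0162 to 0.0361). Over all alternatives the adjusted p ranged from 0.00773 to 0.537.

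A replication factor rose and a D-type cyclin fell. Cdc45, a subunit of the helicase that opens DNA at replication forks, had 14.5, 15.4 and 15.5 FPKM in iPSCs, against 1.03, 0.908 and 1.12 FPKM in Fibs (log2 fold change 3.88, SE 0.11, adjusted p = 1.2e-07). Ccnd2, or cyclin D2, which drives the exit from the first gap phase, had 13.3, 14.1 and 13.9 FPKM in iPSCs, against 61.7, 59.2 and 55.1 FPKM in Fibs (log2 fold change -2.09, SE 0.05, adjusted p = 9.62e-08). In both genes the replicate libraries of a cell type were close to each other. With Fib 2 under 1 FPKM, Cdc45 met the limit only with its iPSC levels. The list of replication and cell cycle genes had 4 of its 40 genes in the table. The third, Mnt, a partner of Max that opposes Myc, averaged 12.2 ± 0.614 FPKM in iPSCs and 10.2 ± 0.519 FPKM in Fibs, for a log2 fold change of 0.25 (adjusted p = 0.0145). Its log2 fold change was -0.13 with TMM and -0.19 with the other scalings, and Mnt was called lower with median-ratio scaling (adjusted p = 0.0411). Without iPSC 3 the rise of Mnt was not called (adjusted p = 0.051), so its direction is not settled here. Brat1, which binds the DNA damage proteins BRCA1 and ATM, did not pass (3.81 ± 0.350 FPKM in iPSCs and 3.28 ± 0.213 FPKM in Fibs, adjusted p = 0.114).

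All 8 genes of mitochondrial respiration and energy in the table, out of 36 in the list, were among the 69, and all 8 were called higher in iPSCs, 7 of them with the same direction under every scaling tried and Dlat not. Their median log2 fold change was 0.86, against 0.65 over all 98 genes tested, of which 45.9% were called higher. Ckmt1 reached the limit through iPSCs alone and so had to differ. The summed level of the 8 genes was 299.9 to 317 FPKM in iPSCs and 152.5 to 163.5 FPKM in Fibs. Cox5a of complex IV had 59.8, 68.6 and 61.1 FPKM in iPSCs, against 20.9, 18.7 and 19.4 FPKM in Fibs (log2 fold change 1.68, SE 0.08, adjusted p = 8.84e-07). Atp5pb, of the stalk of the ATP synthase, had 56.0, 56.3 and 56.9 FPKM in iPSCs, against 26.4, 29.8 and 29.6 FPKM in Fibs (log2 fold change 0.98, SE 0.06, adjusted p = 3.4e-06). The replicate libraries of Atp5pb in iPSCs differed by less than 1 FPKM. Ndufa9 of complex I had 39.9, 44.9 and 41.1 FPKM in iPSCs, against 24.8, 23.8 and 26.2 FPKM in Fibs (log2 fold change 0.75, SE 0.07, adjusted p = 4.9e-05). Sdhd, the membrane anchor of complex II, had 94.0, 97.0 and 95.2 FPKM in iPSCs, against 55.4, 57.6 and 62.3 FPKM in Fibs (log2 fold change 0.71, SE 0.06, adjusted p = 2.64e-05). A subunit from each of 4 enzyme complexes of the inner membrane was therefore called higher. The changes of Ndufa9 and Sdhd lay near the median of all genes tested. With DESeq2's own size factors Sdhd had a log2 fold change of 0.26, though it was still called.

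Ckmt1, the mitochondrial creatine kinase, chr2:121357714-121363737 on the plus strand, was near 0 in Fibs. It had 5.16, 6.25 and 5.84 FPKM in iPSCs, against 0.0666, 0 and 0 FPKM in Fibs. With 803 fragments in iPSCs and 3 in Fibs the ratio was 251 (95% counting interval 85.7 to 1222, adjusted p = 0.000332). Tbrg4, which stabilises mitochondrial mRNAs, averaged 16.4 ± 0.980 FPKM in iPSCs and 3.97 ± 0.315 FPKM in Fibs (log2 fold change 2.04, adjusted p = 8.67e-07). The smallest changes were in the acyltransferase subunits of 2 dehydrogenase complexes. Dbt, of the branched-chain complex, averaged 10.1 ± 0.261 FPKM in iPSCs and 6.32 ± 0.260 FPKM in Fibs, for a log2 fold change of 0.68 (adjusted p = 0.000174), and missed the threshold with DESeq2's own size factors (adjusted p = 0.138, the highest over the alternatives). Dlat, of the pyruvate complex, had 17.4, 17.9 and 19.2 FPKM in iPSCs, against 15.1, 13.4 and 15.2 FPKM in Fibs (log2 fold change 0.31, SE 0.07, adjusted p = 0.00571). Its direction turned with TMM (-0.063) and with median-ratio scaling (-0.13).

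The list of RNA processing, export and translation genes held calls in both directions. Its 2 falls came from an adaptor protein and a prelamin A binder, named below. All 10 of the list's 21 genes in the table were among the 69 (median log2 fold change 0.65, as over all genes tested). Rises numbered 6 and falls 2, beside 45.9% and 28.6% of all genes tested, and 2 genes did not pass. The largest change was in Hnrnpd, or AUF1, which binds AU-rich elements and controls mRNA decay. It had 51.9, 52.5 and 52.2 FPKM in iPSCs, against 8.81, 9.16 and 9.77 FPKM in Fibs, with very little spread in either cell type (log2 fold change 2.497, SE 0.05, adjusted p = 4.98e-08). Wdr77, the partner of the arginine methyltransferase Prmt5, had 16.8, 16.2 and 13.9 FPKM in iPSCs, against 4.14, 5.29 and 4.79 FPKM in Fibs (log2 fold change 1.72, SE 0.12, adjusted p = 8.62e-06). The other rises, of Xpo6, Mkrn2, Rtca and Trim25, had log2 fold changes of 0.64 to 0.89. Xpo6, the nuclear exporter of actin, averaged 7.32 FPKM in iPSCs and 3.94 FPKM in Fibs. Rtca, the RNA terminal phosphate cyclase, averaged 23.1 FPKM in iPSCs and 14.5 FPKM in Fibs, and was not called with median-ratio scaling (adjusted p = 0.0633) or DESeq2's own size factors (adjusted p = 0.148, the highest over the alternatives). The falls were in Dazap2 and Narf. Dazap2, a small proline-rich adaptor protein, fell to 22.9 ± 0.864 FPKM in iPSCs, against 48.2 ± 0.878 FPKM in Fibs (log2 fold change -1.07, adjusted p = 1.15e-06). Narf, which binds prelamin A and is not known to process RNA, fell to 6.87 FPKM in iPSCs, against 9.21 FPKM in Fibs (log2 fold change -0.42, adjusted p = 0.000691).

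Genes of the secretory pathway, lysosome and glycosylation were mostly lower. Of 22 in the list 9 were in the table and 8 among the 69, with a median log2 fold change of -1.02. Falls numbered 6, beside 28.6% of all genes tested, and rises 1, beside 45.9%, while 1 gene did not pass. Scpep1, a lysosomal serine carboxypeptidase, had the highest level of all 69 genes in Fibs. It had 82.5, 81.6 and 86.8 FPKM in iPSCs, against 210 (Fib 1), 204 (Fib 2) and 224 FPKM (Fib 3), a log2 fold change of -1.35 (SE 0.05, adjusted p = 4.05e-07). Gm2a, the activator protein for breakdown of GM2 ganglioside in the lysosome, had 10.0, 10.1 and 9.46 FPKM in iPSCs, against 28.1, 29.0 and 31.1 FPKM in Fibs (log2 fold change -1.57, SE 0.06, adjusted p = 5.69e-07). Tom1l2, an adaptor of endosomal sorting, had 2.72, 2.33 and 2.48 FPKM in iPSCs, against 10.1, 9.93 and 10.2 FPKM in Fibs (log2 fold change -2.01, SE 0.08, adjusted p = 4.52e-07). The lysosomal and endosomal genes were lower in every iPSC library than in any Fib library.

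Gpr107, a Golgi membrane protein, averaged 6.66 FPKM in iPSCs and 10.8 FPKM in Fibs (log2 fold change -0.70, adjusted p = 1.66e-05). Galnt1, which starts O-linked glycosylation, averaged 12.1 ± 0.734 FPKM in iPSCs and 14.6 ± 0.999 FPKM in Fibs, for a log2 fold change of -0.27 (adjusted p = 0.0152), and was not called without iPSC 3 (adjusted p = 0.051) or with the replicate number as a block (adjusted p = 0.0558), and over the alternatives its adjusted p went up to 0.187. Gpr107 and Galnt1 changed by less than 2-fold. Dynlt1c, a dynein light chain with close paralogs whose reads may have been divided among them, averaged 10.9 ± 0.309 FPKM in iPSCs and 3.31 ± 0.344 FPKM in Fibs (log2 fold change 1.71, adjusted p = 4.23e-06).

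The signalling genes split by gene. Of 43 growth factors, receptors and signal transducers 13 were in the table and 11 among the 69 (median log2 fold change 0.18). Called higher were 5 and lower 4, beside 45.9% and 28.6% of all genes tested, and 2 did not pass. Among the ligands, Fgf23, chr6:127072902-127081408 on the plus strand, is the hormone of bone that lowers phosphate. It had 0, 0.0262 and 0 FPKM in iPSCs, against 8.66, 10.8 and 9.52 FPKM in Fibs. With 1 fragment in iPSCs and 918 in Fibs, the ratio of Fib over iPSC was 977 (95% counting interval 175 to 38649, adjusted p = 1.26e-05). Pdgfb, a chain of platelet-derived growth factor, had 1.95, 2.10 and 2.06 FPKM in iPSCs, against 0.0666, 0.0494 and 0 FPKM in Fibs, a ratio of 55.6 in fragments (95% counting interval 28.0 to 130, adjusted p = 0.00111). The ligands thus lay at opposite ends, but each reached the limit in 1 cell type alone and so had to differ. The receptor Ngfr and the kinase Lck rose as given above.

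Among intracellular transducers, Rem1, a small GTPase that inhibits calcium channels, had 0.197, 0.272 and 0.313 FPKM in iPSCs, against 1.36, 1.38 and 1.17 FPKM in Fibs (log2 fold change -2.29, SE 0.37, adjusted p = 0.000937). Fer, a cytoplasmic tyrosine kinase, averaged 4.89 ± 0.379 FPKM in iPSCs and 8.75 ± 0.573 FPKM in Fibs (log2 fold change -0.84, adjusted p = 0.000134). Ccm2, a scaffold protein of endothelial junction signalling, averaged 12.98 ± 0.433 FPKM in iPSCs and 8.97 ± 0.921 FPKM in Fibs, for a log2 fold change of 0.53 (adjusted p = 0.00131), and was not called under TMM, median-ratio or DESeq2's own scaling.

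The few Wnt genes in the table were higher in iPSCs. Of 36 in the list 3 were in the table and 2 among the 69, and both rose, where 45.9% of all genes tested rose. Axin2 reached the limit through iPSCs alone and so had to differ. Wnt9a, a secreted ligand, had 2.77, 2.99 and 2.90 FPKM in iPSCs, against 1.03, 1.23 and 1.11 FPKM in Fibs (log2 fold change 1.36, SE 0.19, adjusted p = 0.00043). Axin2, a target gene and feedback inhibitor of the canonical pathway, had 2.02, 1.95 and 2.32 FPKM in iPSCs, against 0.876, 0.994 and 0.757 FPKM in Fibs (log2 fold change 1.26, SE 0.19, adjusted p = 0.00067). For Wnt9a, above the limit in both cell types, every iPSC library was above every Fib library. Wnt3, a ligand under the limit, had 0.582, 0.328 and 0.402 FPKM in iPSCs and was listed at 0 in all Fib libraries (adjusted p = 0.000643).

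The imprinted genes moved in opposite directions. H19, a long noncoding RNA expressed from the maternal allele, had 23.6, 24.6 and 35.3 FPKM in iPSCs, against 4.13, 3.18 and 4.66 FPKM in Fibs. It was among the more variable genes, with iPSC 3 above the other iPSC libraries, and rose with a log2 fold change of 2.80 (SE 0.21, adjusted p = 1.38e-05). Slc22a18, a transporter of the imprinted cluster next to Cdkn1c, had 4.004, 3.91 and 5.01 FPKM in iPSCs, against 6.11, 9.15 and 10.5 FPKM in Fibs, and fell with a log2 fold change of -0.99 (SE 0.24, adjusted p = 0.0069). Of 19 imprinted genes in the list the table holds 3, of which these 2 reached the limit. Tspan32, under the limit, averaged 0.162 FPKM in iPSCs and 0.0139 FPKM in Fibs, and rose in the edgeR test (adjusted p = 0.00265).

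Polycomb and interferon genes were few and showed no common direction. In the Polycomb and chromatin list 3 of 23 genes were in the table and 2 among the 69, Wdr77 higher as given above and Scmh1 lower. Scmh1, a subunit of Polycomb complex PRC1, averaged 2.83 ± 0.471 FPKM in iPSCs and 4.89 ± 0.393 FPKM in Fibs (log2 fold change -0.79, adjusted p = 0.00148). Of 23 interferon response genes 3 were in the table, and 1 fell, 1 rose and 1 did not pass. Mx1, an antiviral GTPase induced by interferon, had 0.0551, 0 and 0 FPKM in iPSCs, against 1.24, 1.27 and 1.58 FPKM in Fibs. Its 4 fragments in iPSCs against 273 in Fibs gave a ratio of Fib over iPSC of 72.7 (95% counting interval 28.1 to 269, adjusted p = 0.00378). All but a trace of Mx1 was thus on the Fib side, and Mx1 reached the limit in Fibs alone. The other genes of the list were expressed in both cell types. Trim25, a ubiquitin ligase of the RIG-I pathway, averaged 32.0 ± 1.12 FPKM in iPSCs and 20.6 ± 0.627 FPKM in Fibs (log2 fold change 0.64, adjusted p = 1.38e-05). Slfn4, an interferon-induced gene with close paralogs, had 2.53, 2.00 and 4.12 FPKM in iPSCs, against 0, 2.30 and 2.39 FPKM in Fibs. Fib 1 was listed at 0 while the other Fib libraries lay within the iPSC range, and the log2 fold change of 0.88 (SE 1.32, adjusted p = 0.549) became 0.30 without Fib 1.

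**Figure D3:**
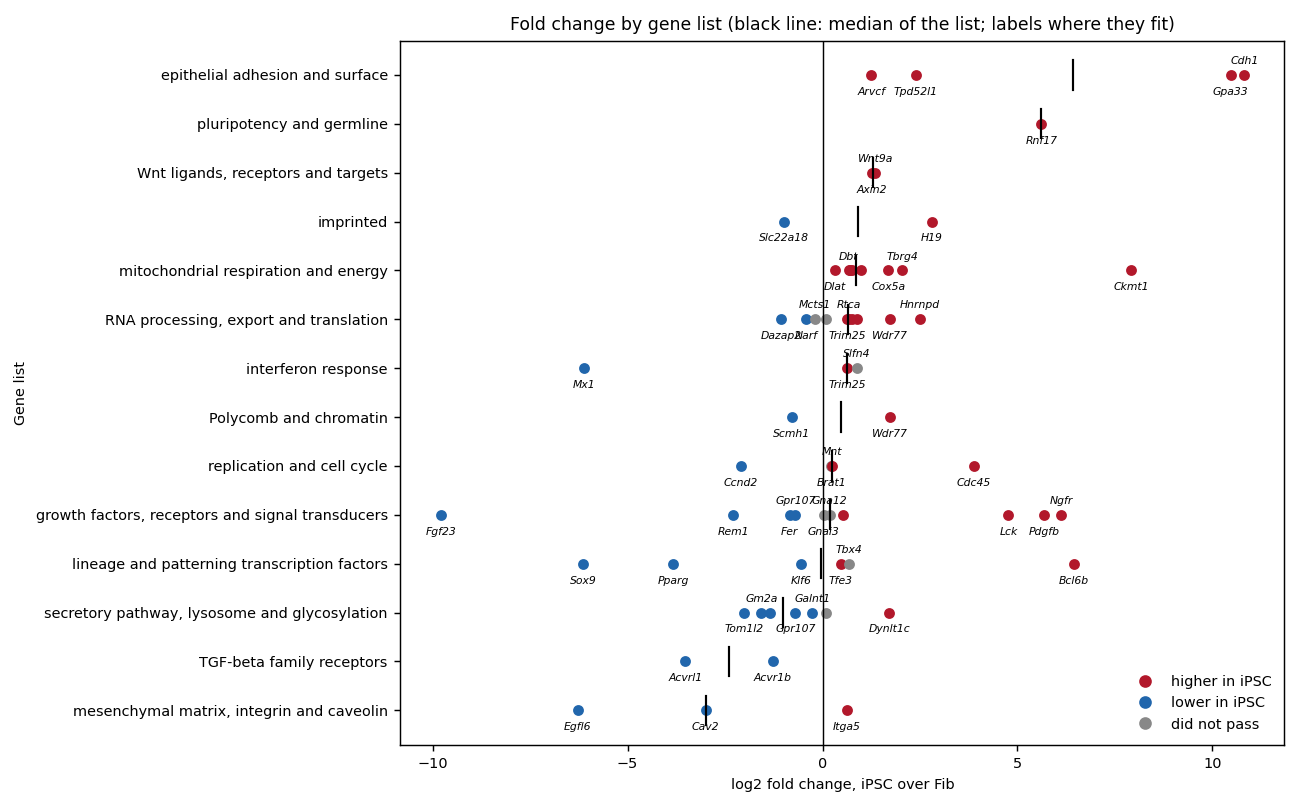
Log2 fold change of iPSC over Fib (x axis) for the genes of each of 14 lists (y axis, ordered by median), with 1 point per gene shown (red higher, blue lower, grey did not pass) and a black line at the median of the whole list among the 69. The medians run from 6.43 for epithelial genes to -3.00 for mesenchymal matrix, integrin and caveolin genes, an order partly fixed by the limit of 1 FPKM, since Cdh1, Gpa33 and Egfl6 among others reached it in 1 cell type alone. A gene may stand in more than 1 list, and the lists hold 1 to 11 of the 69 genes each.

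The 6 genes in no list include Septin1, given above. Gmpr, a GMP reductase of purine metabolism, Hddc2 and Dgke, a diacylglycerol kinase, were more than 2-fold higher, with log2 fold changes of 1.09, 1.54 and 1.48 for Gmpr, Hddc2 and Dgke. Gmpr varied between iPSC libraries, with 3.27, 5.56 and 4.06 FPKM in iPSCs, against 2.30, 1.79 and 1.96 FPKM in Fibs, and missed the threshold under median-ratio scaling (adjusted p = 0.0511, the highest over the alternatives). Grasp, a scaffold protein of receptor trafficking, averaged 7.42 ± 0.513 FPKM in iPSCs and 9.34 ± 0.742 FPKM in Fibs, for a log2 fold change of -0.33 (adjusted p = 0.0387), and was called in only 1 of the 6 fits that left out a library.

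The test was not passed by 9 genes, namely Slfn4, Tbx4, Brat1, Zfp385a, Gna12, C1d, Trappc10, Gnai3 and Mcts1. Gnai3, the inhibitory G protein alpha subunit, had 49.0, 44.0 and 42.8 FPKM in iPSCs, against 45.3, 45.4 and 42.6 FPKM in Fibs, and the cell types overlapped (log2 fold change 0.03, SE 0.06, adjusted p = 0.724). Gna12, a G protein alpha subunit, had 22.4, 23.9 and 22.1 FPKM in iPSCs, against 19.1, 19.6 and 21.7 FPKM in Fibs, without overlap but near to it (log2 fold change 0.18, SE 0.07, adjusted p = 0.0527). C1d, a cofactor of the RNA exosome, had 6.12, 5.74 and 5.64 FPKM in iPSCs, against 8.24, 3.49 and 4.80 FPKM in Fibs. Fib 1 was the highest of all 6 libraries, and without it the log2 fold change of C1d was 0.49 and passed (adjusted p = 0.0327), against 0.08 with all libraries (adjusted p = 0.797, and up to 0.979 over the alternatives). Mcts1, a factor of translation reinitiation, averaged 13.7 ± 1.04 FPKM in iPSCs and 15.7 ± 0.568 FPKM in Fibs (log2 fold change -0.20, SE 0.10, adjusted p = 0.101). It was called lower under 6 alternatives, with a log2 fold change of -0.57 with TMM (adjusted p = 0.00368), -0.64 with median-ratio scaling (adjusted p = 0.00124) and -0.64 with DESeq2's own size factors (adjusted p = 7.9e-05), and about as in the edgeR fit with DESeq2 on the implied totals and both limma fits (adjusted p = 0.0208 to 0.0303). Trappc10, of a complex that tethers Golgi vesicles, and Zfp385a, a zinc-finger protein, had overlapping groups, with means of 6.87 ± 0.456 FPKM in iPSCs and 6.51 ± 0.231 FPKM in Fibs for Trappc10 and of 13.5 ± 1.302 FPKM in iPSCs and 11.8 ± 0.662 FPKM in Fibs for Zfp385a. For Gnai3, Gna12, C1d, Brat1, Zfp385a and Trappc10 the sign of the fold change turned under TMM, median-ratio and DESeq2's own scaling, and Gnai3, Gna12 and Trappc10 were then called lower in iPSCs. Gna12 was also called higher under 8 alternatives that kept the implied totals or FPKM (adjusted p = 0.00737 to 0.0364), so it passed in either direction. These differences could not be given a direction.

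Near the limit of 1 FPKM, the third-highest level of the 6 libraries was 1.17 FPKM for Rem1, 1.24 FPKM for Mx1, 1.57 FPKM for Tbx4 and 1.95 FPKM for Pdgfb just inside, and 0.849 FPKM for Itgb2, 0.775 FPKM for Mid2, 0.706 FPKM for Pemt and 0.697 FPKM for Alox12 just outside. Of the 30 genes outside, 28 lay under 1 FPKM in all 6 libraries, and Gabra2 was listed at 0 in all of them. Of the 29 that could be tested, 8 were called higher and 5 lower.

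The levels of 19 genes with large changes were also read in the iMSCs and BMSCs, as a description with no test. These share the iPSC and Fib libraries as ends of the scale. iMSC 2 stood apart from iMSC 1 and 3 for several genes, so iMSC libraries are given one by one where that matters. The genes near 0 in Fibs and high in iPSCs were low in the mesenchymal cells too. Cdh1 averaged 0.519 FPKM in iMSCs and 0.0926 FPKM in BMSCs, and Septin1 averaged 0.940 FPKM in iMSCs and 0.814 FPKM in BMSCs. Cdh1 lay above the Fib libraries in all 3 iMSC libraries (0.572, 0.312 and 0.672 FPKM), at a level far under that of iPSCs. Ngfr and Rnf17 lay lower than in Fibs, at 0.00554 and 0.0287 FPKM in iMSCs and 0.00998 and 0.00549 FPKM in BMSCs. H19 was also lower than in Fibs, with 0.916, 0.181 and 1.04 FPKM in iMSC 1 to 3 and a BMSC mean of 2.56 FPKM.

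Some genes of the cell cycle and matrix did not follow that order. Ccnd2 averaged 13.1 FPKM in iMSCs and 12.9 FPKM in BMSCs, near the 13.8 FPKM of iPSCs and far from the 58.7 FPKM of Fibs. Cdc45 had 4.51, 10.0 and 4.46 FPKM in iMSC 1 to 3, and a mean of 7.83 FPKM in BMSCs, between iPSCs and Fibs. Egfl6 had 99.5, 14.0 and 84.7 FPKM in iMSC 1 to 3 and a mean of 79.3 FPKM in BMSCs, so that iPSCs, at a mean of 0.605 FPKM, were lowest by a wide margin and iMSC 2 was the lowest mesenchymal library. Sox9 and Fgf23 fell between the ends, while Gm2a in BMSCs, at a mean of 32.1 FPKM, lay above the Fib mean of 29.4 FPKM. Sox9 averaged 5.22 FPKM in iMSCs and 6.76 FPKM in BMSCs, and Fgf23 had 2.42, 0.0676 and 2.36 FPKM in iMSC 1 to 3 and a mean of 1.81 FPKM in BMSCs. Tbx4, which did not pass between iPSCs and Fibs, averaged 7.04 FPKM in iMSCs and 7.27 FPKM in BMSCs.

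**Figure D4:**
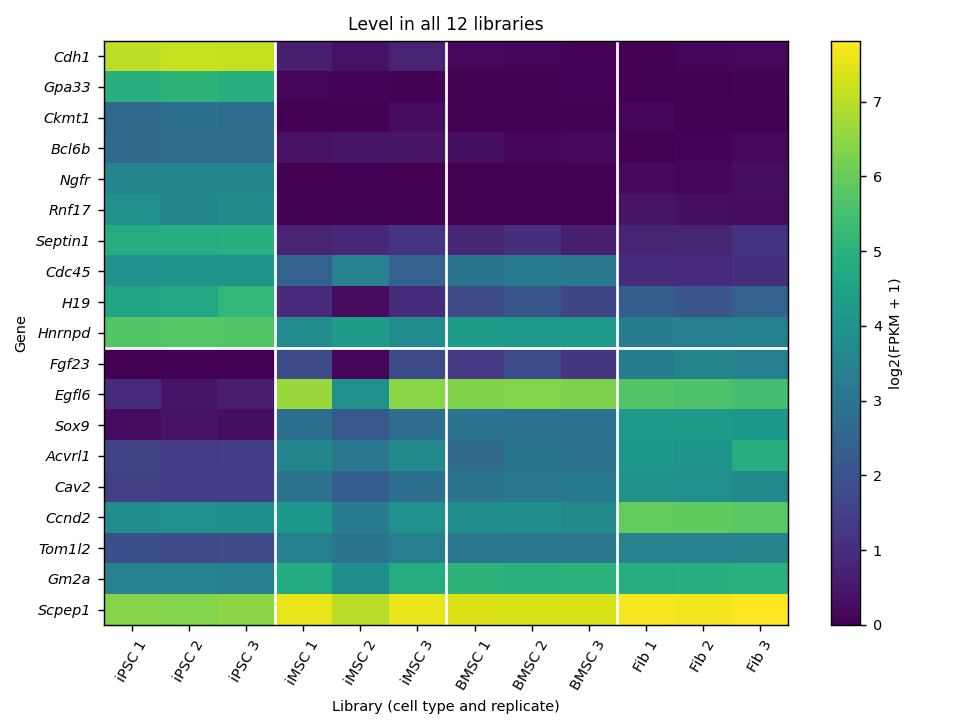
Level as log2(FPKM + 1) (colour) of 19 genes with large changes (rows, 10 rises above the line and 9 falls below) in all 12 libraries (columns, 3 each of iPSC, iMSC, BMSC and Fib). The rises are bright only in the iPSC columns for Cdh1, Gpa33, Ngfr, Rnf17 and Septin1, while Cdc45 and Hnrnpd are at middle levels in iMSCs and BMSCs. iMSC 2 is darker than iMSC 1 and 3 for Egfl6 and Fgf23.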

How the data were processed

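RNA was sequenced from 3 cultures each of iPSCs, Fibs, iMSCs and BMSCs as poly(A)-selected, strand-marked paired-end libraries. The submitters' notes name cutadapt 1.9, HISAT2 2.0.4, StringTie 1.3.4d, DESeq2 and edgeR. FPKM values, as deposited by the authors, are divided by transcript length and library total. The deposited counts are whole numbers and not normalized by the authors, and how they were made and with which strand setting was not stated. Of 77 counts from 1 to 13, 61 were 4, 8 or 12, so fragments were taken as counts divided by 4. Counting intervals (exact, 95%) rest on these and cover counting error only. Gene coordinates are those of the table. The notes name mm9, but 99 of the 99 genes had the chromosome and 85 the start and end of GENCODE M21 on GRCm38.

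Library totals were computed from the ratio of count to FPKM and transcript length over genes with at least 500 counts, because the table holds few genes. edgeR 4.0.16 in R 4.3.3 (quasi-likelihood test, two-sided, prior count 0.125 for fold changes) was run on the 6 libraries over 98 genes, with Benjamini-Hochberg adjustment over all of them. A log2 fold change of an edgeR fit is on the scale of counts per library total. Standard errors were taken from the fold change and its F statistic. The step was also run on simulated counts in which fewer genes changed than were called here, and no conclusion is drawn from that run. DESeq2 1.42.0 and limma 3.58.1 were alternatives, together with TMM and median-ratio scaling, filters on low FPKM, counts divided by 4, a fit of all 12 libraries, a replicate block and leaving out each library.

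The chi-square per degree of freedom between replicates was 4.25 to 4.68 in iPSCs and 7.08 to 10.6 in Fibs, so each library was kept as a replicate. P-values measure the spread between these cultures. Every gene may be named in its list. All 6 values went to those shown of the 10 largest rises and 10 largest falls with a higher mean of at least 5 FPKM and no overlap, and to genes on which a list turns. A few more were given all 6 values after their values were seen. Genes and lists were chosen with earlier results of these data known. The results of some genes are not reported here.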

Additional observations from a re-analysis of the deposited data

How the results depend on the processing

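The 4 counts of genes kept within 1.5 times their value under all 18 alternatives. Higher in iPSCs were 37 genes, 29 to 39 under the alternatives, and lower were 23, with 18 to 28. Leaving out a library gave 37 to 39 higher and 21 to 23 lower, and 22 to 24 and 15 to 16 by more than 2-fold. Among 1229 values of single genes under the alternatives, 1153 kept direction and side of the threshold, 26 fell below it, 22 passed it and 28 turned sign, and 49 of the 69 genes kept both throughout. The turned signs, as log2 fold changes of iPSC over Fib with TMM, median-ratio scaling and DESeq2's own size factors in this order, were -0.35, -0.42 and -0.42 for Gnai3, -0.16, -0.23 and -0.23 for Brat1, -0.20, -0.27 and -0.27 for Gna12, -0.063, -0.13 and -0.13 for Dlat, -0.13, -0.19 and -0.19 for Mnt, -0.30, -0.37 and -0.37 for Trappc10, -0.18, -0.25 and -0.25 for Zfp385a, and -0.29, -0.35 and -0.35 for C1d. These scalings use the 98 genes alone and shift all of them by -0.38 to -0.45. Leaving out a library gave -0.035 to 0.064 for Gnai3 and -0.16 to 0.49 for C1d.

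Whether replicate numbers pair the samples could not be settled with 3 libraries per cell type. The correlation of deviations from the group means was 0.153, -0.157 and 0.459 for numbers 1 to 3. The value for number 3 was the highest of all pairs, but not every library correlated best with its own number. With the replicate number as a block 37 genes were higher and 21 lower, 23 and 15 by more than 2-fold. Galnt1 (-0.27, adjusted p = 0.0558) and Grasp (-0.33, adjusted p = 0.0918) were then not called. With all 12 libraries in 1 fit of edgeR, which includes the divergent iMSC 2, Klf6, Mnt and Galnt1 were not called (adjusted p = 0.0856, 0.134 and 0.187), and the cause was not tested. Precision is limited for genes near 0 in a cell type, whose fold changes rest on 1 to 38 fragments there.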
